A study of Homo sapiens with 48 samples.

Results

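The cytosolic ribosomal protein genes were taken as the protein-coding genes of GENCODE release 29 whose symbols follow the standard names of the subunit proteins, namely RPSA, RPLP0 to RPLP2, and RPL or RPS with a number and at most an A or X after it. The rule found 77 genes among 58721 genes in the tables, of which 19940 were protein-coding. Of the 77 genes, 46 encode proteins of the large (60S) subunit and 31 encode proteins of the small (40S) subunit, and they lie on 21 chromosomes. Genes such as FAU, RPS4Y1 and the paralogs with an L in the suffix fall outside the rule and are described as a separate list. The cells were DLD-1, a human colorectal carcinoma line, all labelled TIR1+, so they carry the plant receptor through which auxin directs degron-tagged proteins to the proteasome. In the CNOT1-AID line the auxin-inducible degron is on CNOT1, the scaffold of the CCR4-NOT complex. In the CNOT4-AID line it is on CNOT4, a ubiquitin ligase linked to that complex, and the parental line is untagged. For steady-state RNA each line was given 1 mM auxin or left untreated, for 8 h or 24 h, which makes 12 groups. For decay each line was given 1 mM auxin for 2 h and then 1 µM triptolide, an inhibitor of transcription initiation, for 0, 3, 6 or 12 h, which makes another 12 groups. Each group had 2 libraries. The decay set had no cells without auxin. The labels do not say whether libraries of a group came from separate cultures or whether a tagged line is 1 clone, so p-values measure only the spread between libraries, which may be technical. The study asked how loss of CNOT1 and of CNOT4 alters mRNA levels and mRNA stability.

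Ribosomal proteins are made in near-equal numbers and joined to ribosomal RNA in the nucleolus, and their mRNAs are among the most abundant and most stable of growing cells. Nearly all of them are known as TOP mRNAs, whose first base is a C followed by an unbroken run of pyrimidines (a 5′ terminal oligopyrimidine tract). The mTOR pathway controls translation of TOP mRNAs through this tract, and the protein LARP1 binds the tract and holds the mRNAs in a stable, untranslated store when mTOR is off. CCR4-NOT is the main cytoplasmic deadenylase of animal cells and shortens poly(A) tails before decay, and it also binds ribosomes that have stalled or slowed.

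The first bases of the mRNAs were read from RefSeq (GRCh38.p14) for the members on which the results below turn, together with members that have no such tract at the annotated start. Each sequence holds the 5 bases before the annotated transcription start and the first 20 transcribed bases, so each window crosses from the promoter into the 5′ untranslated region of the first exon. Capitals mark a C at the start and the pyrimidines that follow it without a break, where that run was at least 5 bases long (the C and 4 more). The 3 members that fell furthest after CNOT1 depletion and had an entry come first, then the members with the longest and the shortest tract, then a stalk protein and 2 proteins of the small subunit.
RPSA: cctgtCTTTTCCgtgctacctgcag
RPS12: gaggcCTCTTTCCCTgccgccgccg
RPLP0: gaggcCCTTCTCTCgccaggcgtcc
RPL39: agcttCCCTCCTCTTCCTTTCTCCg
RPL41: cctttCTCTCggccttagcgccatt
RPLP1: gagagCCCCTTTCCTCagctgccgc
RPS10: tccttCCTTTCCagccccggtaccg
RPS6: tggccCTCTTTTCCgtggcgcctcg
RPL4: gtggtaagcacttccttttcctgtg
RPL10A: atgctagtctcttttccggttagcg
RPS4X: gccccaatttctacgcgcaccggaa
RPS26: acctcgattttcttccgccatccgg
The windows lie at chr3:39406715-39406739 (plus strand) for RPSA, chr6:132814564-132814588 (plus) for RPS12, chr12:120201092-120201116 (minus) for RPLP0, chrX:119791611-119791635 (minus) for RPL39 and chr12:56116628-56116652 (plus) for RPL41. Those of RPLP1, RPS10 and RPS6 lie at chr15:69452813-69452837 (plus), chr6:34426050-34426074 (minus) and chr9:19380217-19380241 (minus). Those of RPL4, RPL10A, RPS4X and RPS26 lie at chr15:66504836-66504860 (minus), chr6:35468396-35468420 (plus), chrX:72277229-72277253 (minus) and chr12:56041913-56041937 (plus). The last 4 show no capitals because the base at the annotated start is not a C followed by 4 pyrimidines.

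Of the 62 members matched in the RefSeq table, 46 (74.2%) had a TOP tract at an annotated start, against 947 of 14896 protein-coding genes (6.36%) and 6 of 69 mitochondrial ribosomal protein genes. Among the other known TOP mRNAs, 11 of 12 matched had one. The tract ran from 5 bases in RPL41 to 19 in RPL39, with a median of 8. The 16 members without one were RPL3, RPL4, RPL6, RPL9, RPL10A, RPL15, RPL17, RPL19, RPL27, RPL32, RPS4X, RPS7, RPS15, RPS26, RPS28 and RPS29. An annotated start need not be the base used in DLD-1 cells, and a missing match says only that these letters are not at that base. The other 15 members were not matched.

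All 77 members were expressed. Averaged over the 24 steady-state libraries, the deposited TPM (a level per unit of gene length, scaled to a fixed total per library) ran from 76.0 for RPL36A to 2949 for RPS2, with a median of 730. RPS2, which lines the mRNA entry side of the small subunit, was followed by RPL41 (1810 TPM), the shortest ribosomal protein, then RPS3 (1626 TPM), RPL15 (1501 TPM) and RPLP0 (1469 TPM). There were 18 members at or above 1000 TPM. Only RPL22 (91.1 TPM) and RPL36A stood below 100 TPM. Of the 100 protein-coding genes with the highest mean TPM, 46 were members. The annotation holds 1133 ribosomal protein pseudogenes by symbol, whose TPM came to 4.06% to 4.56% of the members' TPM, so reads from near-identical copies may be shared between a member and its pseudogenes. In 35 members an exon is overlapped on the same strand by another gene, often a small nucleolar RNA. In 9 of these, RPL17, RPL22, RPL26, RPL36, RPL36A, RPS10, RPS13 and RPS15A among them, that gene is protein-coding, and their values are uncertain for that reason.

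The libraries carried the markers of colon epithelium, with 13 of 15 at 1 TPM or more and KRT8 highest at 1600 TPM. Of the 7 blood markers 1 reached 1 TPM (CD14, 1.0 TPM), and none of the 8 fibroblast or 4 endothelial markers did. The degron removes the protein, so the mRNA of the tagged gene does not check it. The mRNA of CNOT1 had 45.0 and 48.3 TPM with auxin for 8 h in CNOT1-AID cells, against 49.0 and 60.9 TPM in untreated ones. At 24 h it had 45.9 and 39.9 TPM with auxin, against 68.4 and 59.0 TPM untreated. Untreated parental cells had more, with 88.3 and 83.8 TPM at 8 h and 95.2 and 91.4 TPM at 24 h. Replicate steady-state libraries correlated at r = 0.979 to 0.988 across all genes. The lowest of these was the pair of CNOT4-AID libraries given auxin for 8 h, in which replicate 1 stood apart with 30.6% of its TPM on protein-coding genes, while the other 23 libraries held 37.8% to 54.7%. In the decay set the libraries held 18216427 to 26723618 counts. There the least alike pair was parental 0 h (r = 0.967), and CNOT4-AID 12 h replicate 2 carried 3.92% of its counts on the ERCC spike-in against 2.25% in replicate 1.

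Ribosomal protein mRNA took a smaller share of the mRNA pool in CNOT1-AID cells given auxin. The 77 members together took 10.5% and 10.5% of protein-coding TPM in CNOT1-AID cells given auxin for 8 h, against 14.2% and 13.2% in untreated CNOT1-AID cells. At 24 h the share was 10.7% and 10.9% with auxin, against 13.1% and 13.3% untreated. The gap was larger than the difference between replicates at both times, and neither other line showed one of that size. The share in CNOT4-AID cells was 14.5% and 14.5% with auxin for 8 h, against 14.6% and 14.7% untreated, and 13.9% and 14.1% with auxin for 24 h, against 14.6% and 15.1% untreated. In parental cells it was 13.8% and 13.8% with auxin for 8 h, against 14.3% and 14.5% untreated, and 13.7% and 13.8% with auxin for 24 h, against 13.7% and 14.1% untreated. The plot of the share by library shows that the 4 CNOT1-AID auxin libraries lay below the other 20.

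**Figure D1:**
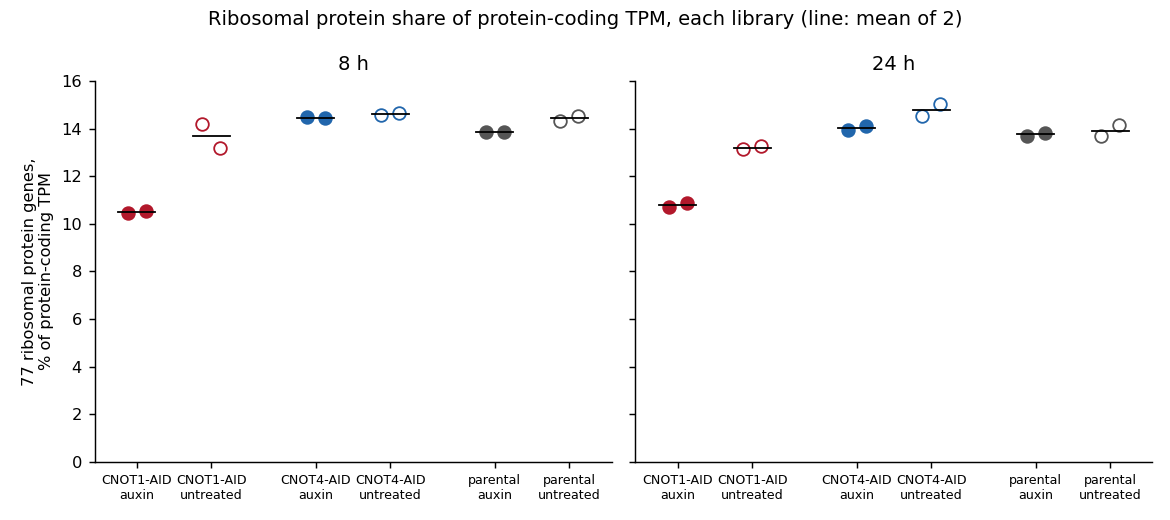
Share of protein-coding TPM taken by the 77 ribosomal protein genes (percent, y axis) in each steady-state library, at 8 h (left) and 24 h (right). Filled points are auxin libraries, open points untreated ones, and bars the mean of 2 libraries. The CNOT1-AID auxin libraries lie between 10.5% and 10.9%, and all others between 13.1% and 15.1%.

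The same cells measured against the spike-in gave another picture. The ERCC RNAs were added in a fixed amount to a fixed amount of total RNA, so levels on that scale are per total RNA and not per cell, and in bulk RNA fewer cells and less RNA per cell cannot be told apart. The members' TPM per 1000 ERCC TPM was 4442 and 4362 in CNOT1-AID cells given auxin for 8 h, against 4079 and 4682 in untreated CNOT1-AID cells, so the groups overlapped. At 24 h it was 3884 and 4074 with auxin, against 3944 and 3767 untreated, again with overlap. The scales differ in where they set no change. Under TMM scaling, which sets most genes at no change, the median response over all 14921 genes tested was 0.00 at 8 h on the log2 scale, and under ERCC scaling it was 0.41 at 8 h and 0.29 at 24 h. Protein-coding genes held 51.7% to 54.7% of TPM in the 4 CNOT1-AID auxin libraries and 42.6% to 47.2% in the untreated ones. Their part in the members' lower share was not tested. A change below is relative to most other mRNAs where TMM scaling is named, and relative to total RNA where ERCC scaling is named.

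Tests of steady-state levels used limma on log2(TMM-scaled TPM + 0.5) across all 24 libraries, with Benjamini-Hochberg adjustment over all genes tested and a threshold of 0.05. All 77 members passed the filter on low values (at least 1 TPM in 2 libraries). In CNOT1-AID cells at 8 h, 73 of 77 members were lower with auxin and none was higher, where 29.8% of all genes tested were called lower and 33.1% higher. At an unadjusted p under 0.05 the count was 74, all lower. No share of all genes is given for this or any later count at an unadjusted p. Such counts do not set the members apart from other genes. The median log2 fold of the members was -0.44, and they ran from -1.13 for RPSA to -0.09 for RPL10A. The subunits moved alike, with 30 of 31 small-subunit genes (median -0.44) and 43 of 46 large-subunit genes (median -0.43) lower. In 76 of 77 members both auxin libraries lay below both untreated ones, a count for which no share over all genes is given. At 24 h, 57 members were lower and 1 was higher, where 34.8% of all genes tested were called lower and 36.7% higher. The median of the members was -0.28, with 24 of 31 small-subunit and 33 of 46 large-subunit genes lower. The members ranked much alike at the 2 times: across the 77 genes the 8 h and 24 h folds had r = 0.832 and rho = 0.794, a description over genes that share the line and the normalization. The level of a member had little relation to its fold (r = -0.125 at 8 h and 0.0482 at 24 h with log2 mean TPM, 77 genes).

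Under ERCC scaling 4 members were lower and 5 higher at 8 h, where 9.76% of all genes tested were called lower and 52.0% higher. The median of the members was 0.03 against 0.41 for all genes. At 24 h, 10 were lower and 20 higher (19.9% and 46.1% of all genes), with a member median of 0.08. The members' median therefore lay below that of all genes on both scales, while the direction of most members depended on the scale. The members that fell on both scales at both times were RPSA, RPLP0, RPS12 and RPS20. The plot of member responses shows these 4 at the top, with both intervals left of 0 in both panels.

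**Figure D2:**
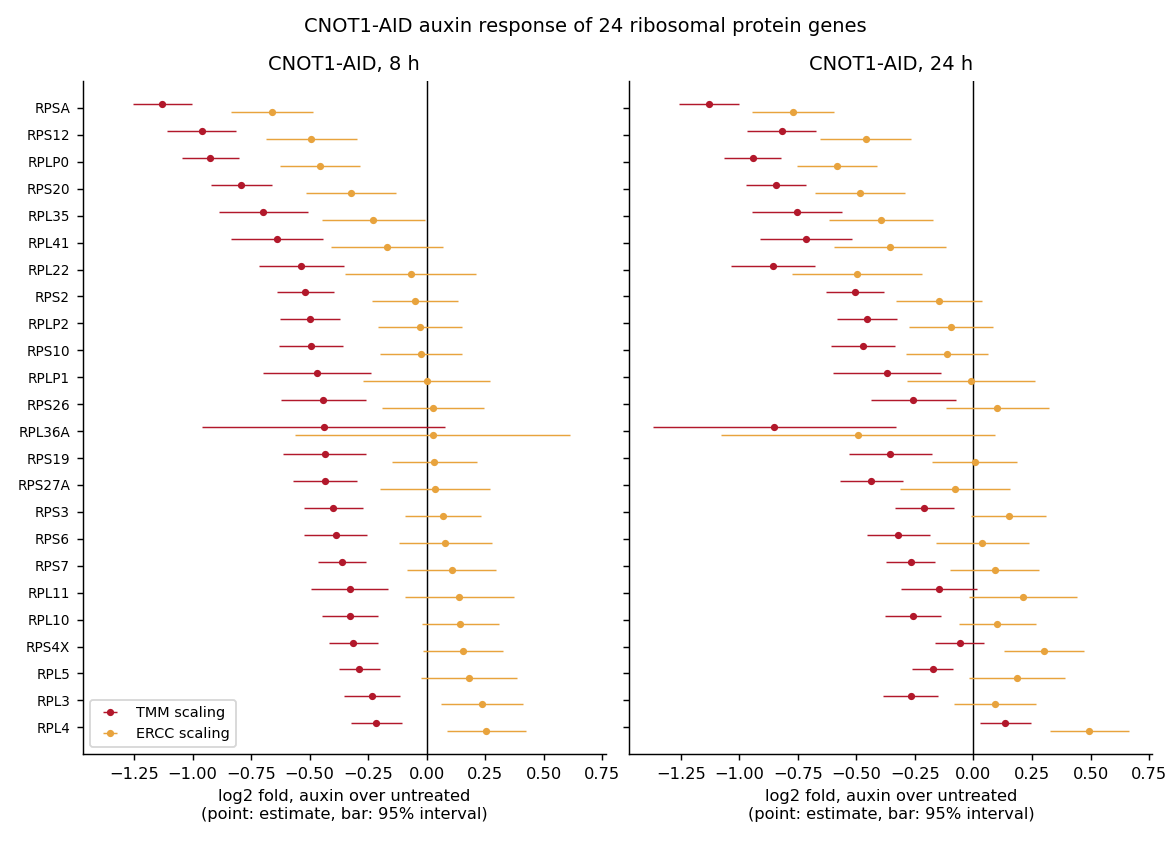
Log2 fold of auxin over untreated in CNOT1-AID cells (x axis), at 8 h (left) and 24 h (right). The 24 members (y axis, ordered by the 8 h TMM value) are those picked in either comparison by the rule in the processing section. Points are estimates and bars 95% intervals under TMM scaling (red) and ERCC scaling (orange), and the 2 scales differ by about the same step for every gene.

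RPSA gave the largest fall. It encodes a protein on the solvent side of the small subunit that was first described as a laminin receptor. Its TMM-scaled TPM was 517 and 511 in CNOT1-AID cells given auxin for 8 h, against 1210 and 1046 in untreated CNOT1-AID cells. At 24 h it was 496 and 500 with auxin, against 1074 and 1109 untreated. The groups stood well apart at both times, and RPSA fell 2.19-fold at 8 h (log2 -1.13 ± 0.06 SE, limma adjusted p = 8.68e-11, n = 2 libraries each) and by the same fold at 24 h (adjusted p = 3.77e-11). Under ERCC scaling it fell by 0.66 and 0.77 on the log2 scale. In CNOT4-AID cells RPSA stood at 1108 and 1015 with auxin for 8 h, against 1132 and 1135 untreated. In parental cells it was 951 and 971 with auxin for 8 h, against 1061 and 1011 untreated.

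RPLP0 encodes the base of the stalk of the large subunit, and RPLP1 and RPLP2 the pairs of acidic proteins on it that recruit translation factors. RPLP0 had 866 and 875 TMM-scaled TPM in CNOT1-AID cells given auxin for 8 h, against 1771 and 1545 in untreated CNOT1-AID cells, and 841 and 852 with auxin for 24 h, against 1594 and 1662 untreated. That was a fall of 0.93 ± 0.06 on the log2 scale at 8 h (limma adjusted p = 5.73e-10) and of 0.94 at 24 h (limma adjusted p = 2.10e-10). The other stalk proteins fell less under TMM scaling. RPLP1 had a log2 fold of -0.47 at 8 h and -0.37 at 24 h, and RPLP2 of -0.50 and -0.46. Under ERCC scaling neither RPLP1 nor RPLP2 passed the threshold at either time (values from -0.10 to 0.00), so only RPLP0 of the 3 fell on both scales. The differences between the stalk genes were not tested.

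RPS12 sits on the beak of the small subunit. It had 273 and 258 TMM-scaled TPM in CNOT1-AID cells given auxin for 8 h, against 558 and 479 in untreated CNOT1-AID cells. RPS12 fell by 0.96 ± 0.07 on the log2 scale at 8 h (limma adjusted p = 3.82e-09) and by 0.82 at 24 h. RPS20, RPS10, RPS3 and RPS2 are the small-subunit proteins that ZNF598 and other ligases ubiquitinate when ribosomes collide or stall. RPS20 had 372 and 373 TMM-scaled TPM with auxin for 8 h, against 675 and 617 untreated, and 338 and 334 with auxin for 24 h, against 600 and 606 untreated. RPS20 fell by 0.79 at 8 h (limma adjusted p = 7.97e-09) and by 0.84 at 24 h, and it also fell under ERCC scaling (0.32 and 0.48). RPS10 had 535 and 534 with auxin for 8 h, against 812 and 699 untreated, a log2 fold of -0.49, and -0.47 at 24 h. RPS2 had 1312 and 1385 with auxin for 8 h, against 2045 and 1823 untreated, a log2 fold of -0.52, and -0.51 at 24 h. RPS3 had 1254 and 1315 with auxin for 8 h, against 1830 and 1570 untreated, a log2 fold of -0.40, and -0.21 at 24 h. All 4 passed the TMM test at both times, and RPS2, RPS3 and RPS10 did not pass the ERCC test at either (-0.15 to 0.15).

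RPS7 is the human counterpart of the yeast protein that Not4, the yeast CNOT4, ubiquitinates. It had 644 and 628 TMM-scaled TPM in CNOT1-AID cells given auxin for 8 h, against 853 and 784 in untreated CNOT1-AID cells. Its log2 fold was -0.36 at 8 h (limma adjusted p = 6.65e-06) and -0.27 at 24 h, while under ERCC scaling it stood at 0.11 and 0.09 and did not pass. In CNOT4-AID cells its TMM log2 fold at 24 h was -0.08, which did not pass the threshold (limma adjusted p = 0.383, 95% interval -0.18 to 0.03).

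RPL5 and RPL11 form the 5S particle with 5S rRNA, and outside the ribosome they bind MDM2, the ligase of p53. RPL5 had 458 and 471 TMM-scaled TPM with auxin for 8 h, against 584 and 551 untreated, and RPL11 had 305 and 313 with auxin, against 402 and 375 untreated. Both fell at 8 h (log2 -0.29 and -0.33). At 24 h RPL5 had a log2 fold of -0.17 and still passed, while RPL11 at -0.15 did not (limma adjusted p = 0.0957). Under ERCC scaling both were above 0 at both times (0.14 to 0.21) and neither passed.

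Of the other members with a known special role, RPS6, the substrate of S6 kinase, had a log2 fold of -0.39 at 8 h and -0.32 at 24 h under TMM scaling. RPS19 and RPS26, both mutated in Diamond-Blackfan anaemia, had -0.44 and -0.44 at 8 h, and -0.35 and -0.26 at 24 h. RPS27A, made as a fusion with ubiquitin, had -0.43 and -0.44. RPL3 and RPL10, near the catalytic centre of the large subunit, had -0.23 and -0.33 at 8 h, and -0.27 and -0.26 at 24 h. All of these passed the limma test at both times under TMM scaling. Under ERCC scaling RPL3 was called the other way at 8 h (0.24, limma adjusted p = 0.02) and stood at 0.09 at 24 h, not past the threshold. RPL10, RPS6, RPS19 and RPS26 were also above 0 at both times on that scale (0.00 to 0.14), and RPS27A had 0.03 and -0.08, none of them past the threshold. RPS4X, the X-linked copy of its protein, passed under TMM scaling at 8 h (-0.31) and not at 24 h (-0.06, limma adjusted p = 0.304), and under ERCC scaling it was higher at 24 h (0.30, limma adjusted p = 0.00317).

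RPL41, RPL35 and RPL22 fell further than most members under TMM scaling. RPL41 had 1346 and 1392 TMM-scaled TPM in CNOT1-AID cells given auxin for 8 h, against 2265 and 2007 in untreated CNOT1-AID cells, a log2 fold of -0.64, and -0.72 at 24 h. RPL35, at the exit of the peptide tunnel, had -0.70 and -0.75. RPL22, whose paralog RPL22L1 can replace it, had 69.2 and 65.1 with auxin for 8 h, against 96.2 and 98.8 untreated, and 54.6 and 53.6 with auxin for 24 h, against 98.5 and 98.2 untreated. Its log2 fold was -0.54 at 8 h and -0.86 at 24 h (limma adjusted p = 1.13e-07). Under ERCC scaling these 3 did not pass at 8 h (-0.23 to -0.07) and were lower at 24 h (-0.50 to -0.36). RPL36A, the lowest member, had -0.44 with a wide interval at 8 h (-0.96 to 0.08) and -0.85 ± 0.24 at 24 h (limma adjusted p = 0.00574), which did not pass under ERCC scaling. An exon of RPL22 and of RPL36A is overlapped by another protein-coding gene, as above.

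At the other end stood RPL4, RPL7, RPL10A, RPL14 and RPS24. RPL4, which lines the peptide tunnel, had 996 and 987 TMM-scaled TPM in CNOT1-AID cells given auxin for 8 h, against 1231 and 1076 in untreated CNOT1-AID cells, and 1235 and 1218 with auxin for 24 h, against 1113 and 1121 untreated. It was lower at 8 h (log2 -0.21) and the single member that was higher at 24 h (log2 0.14 ± 0.05, limma adjusted p = 0.0269). RPL10A, part of the stalk on the other side of the large subunit, had 453 and 461 with auxin for 8 h, against 520 and 458 untreated, and the groups overlapped (log2 -0.09, limma adjusted p = 0.0975). RPL14 (-0.16, limma adjusted p = 0.0623) and RPS24 (-0.17, limma adjusted p = 0.0828) also missed the threshold at 8 h. Under ERCC scaling RPL3, RPL4, RPL7, RPL10A and RPL14 were the 5 members higher at 8 h, with log2 folds of 0.24 to 0.38.

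**Figure D3:**
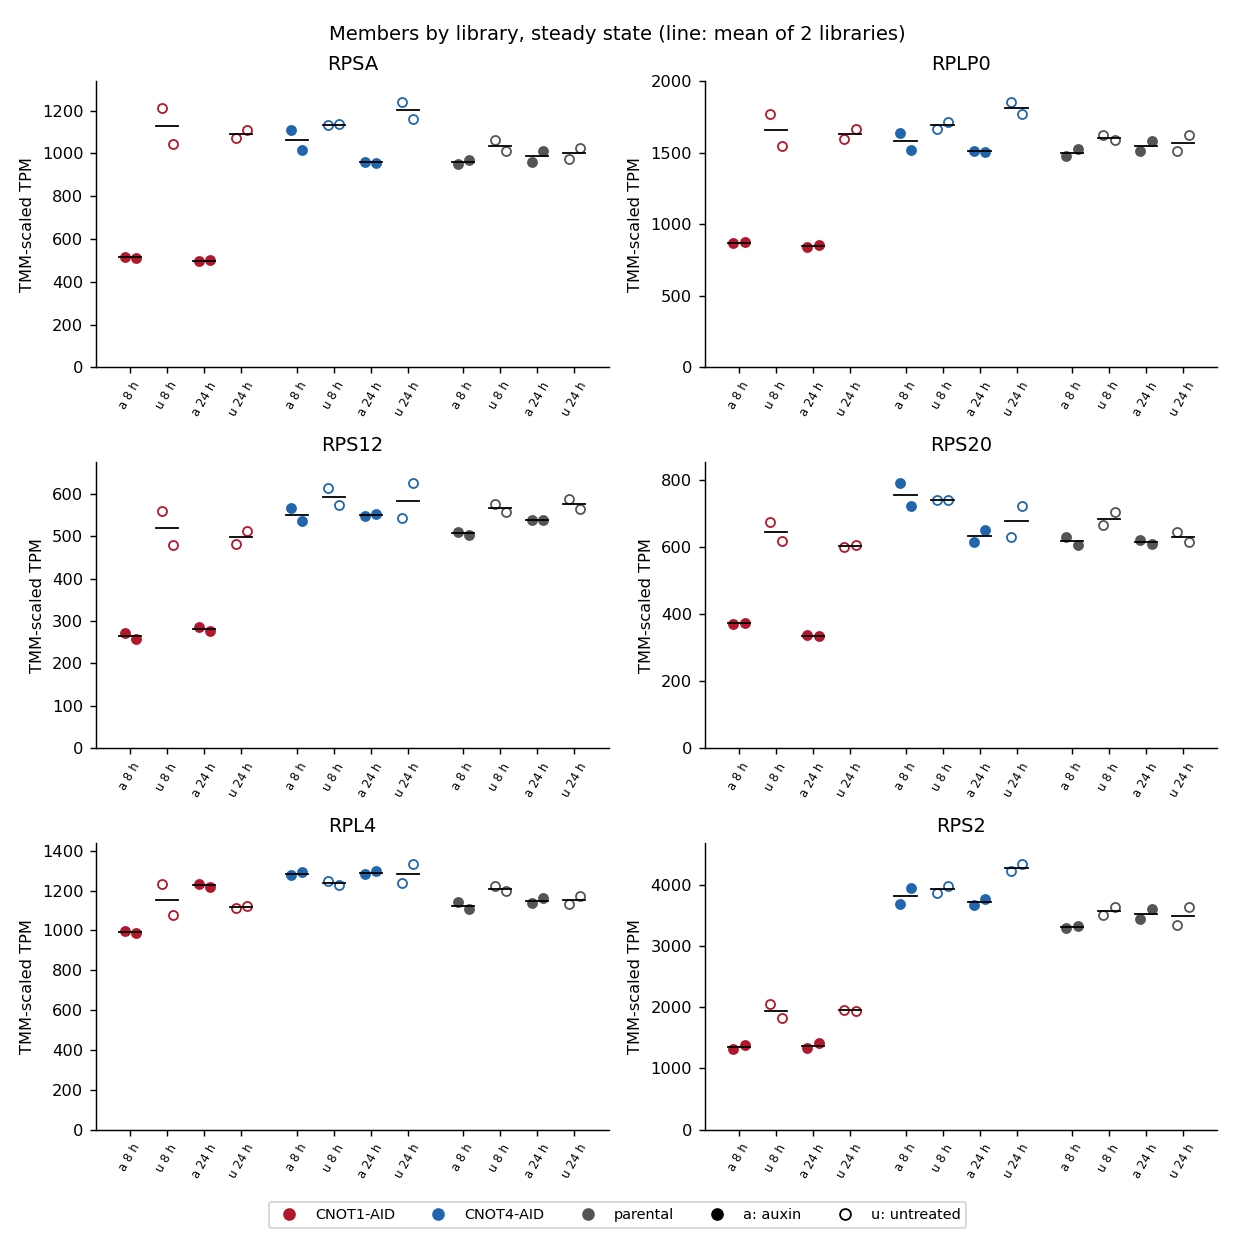
TMM-scaled TPM (y axis) of RPSA, RPLP0, RPS12, RPS20, RPL4 and RPS2 in each of the 24 steady-state libraries. Filled points are auxin (a), open points untreated (u), and bars the mean of 2 libraries. In the CNOT1-AID auxin libraries RPSA lies at 496 to 517 and in its untreated libraries at 1046 to 1210, and RPS2 is low in all 8 CNOT1-AID libraries.

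The folds of members with and without a TOP tract at the annotated start overlapped. At 8 h the 46 members with a tract had a median TMM log2 fold of -0.44 (range -1.13 to -0.16), and the 16 members without had -0.43 (range -0.50 to -0.09). At 24 h the medians were -0.35 with a tract and -0.27 without. No member without a tract had a log2 fold below -0.50 at 8 h, but this bound did not hold at 24 h. The range at 24 h was -1.13 to 0.045 with a tract and -0.61 to 0.135 without. RPSA and RPS12, the pair that fell furthest at 8 h, have tracts of 7 and 10 bases as printed above, and RPL39, with 19, had a log2 fold of -0.51.

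The response of the other lines was small. In CNOT4-AID cells at 8 h no member passed the limma test in either direction (0.0469% of all genes called lower and 0.241% higher), and 11 had an unadjusted p under 0.05. The median was 0.02 and the 95% intervals of the members ran from -0.45 to 0.64. Without the library that stood apart, auxin replicate 1, 1 member was higher and none lower. At 24 h 4 members were lower with auxin and none higher (2.42% and 2.09% of all genes). They were RPSA, RPLP0, RPS29, whose protein holds a zinc finger, and RPL23A, at the exit of the peptide tunnel. RPSA had 961 and 956 TMM-scaled TPM in CNOT4-AID cells given auxin for 24 h, against 1239 and 1162 in untreated CNOT4-AID cells (log2 -0.32, limma adjusted p = 0.0104). RPLP0 had 1511 and 1505 with auxin, against 1852 and 1772 untreated (log2 -0.26, limma adjusted p = 0.0215). RPS29 (-0.27) and RPL23A (-0.19) had limma adjusted p = 0.0430 and 0.0469. In these 4 members both auxin libraries lay below both untreated ones. This count rests on the scale and on single libraries: under ERCC scaling no member was lower and 5 were higher (0.0268% and 9.46% of all genes called), namely RPL4, RPL7, RPL11, RPL17 and RPS24 at log2 0.27 to 0.48. Leaving out untreated replicate 2 gave 2 lower members, and leaving out any other of the 4 libraries gave 0.

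In parental cells no member passed at 8 h or at 24 h. All genes called came to 0.0067% lower and 0.0134% higher at 8 h, and to 0.0% both ways at 24 h. At an unadjusted p under 0.05 there were 19 members at 8 h and 0 at 24 h. The median was -0.11 at 8 h, where all 77 estimates were below 0, and -0.03 at 24 h. Both auxin libraries lay below both untreated ones in 68 of 77 members at 8 h and in 18 at 24 h. In CNOT4-AID cells 16 members lay below and 17 above in that way at 8 h, and 38 and 3 at 24 h. Neither these counts nor the unadjusted ones are given over all genes, so they do not set the members apart from other genes. Auxin without a degron went with a small lower level at 8 h that did not pass for any single gene.

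The difference between responses was tested in the same fit. The CNOT1-AID response was below the parental response in 58 members at 8 h (23.2% of all genes called lower) and in 43 at 24 h (29.6%), with medians of -0.33 and -0.28 and none above it (4035 of 14921 genes, and 32.3%, called higher; 63 and 49 members at an unadjusted p under 0.05). RPSA differed most, by -1.02 at 8 h and -1.11 at 24 h. Against the CNOT4-AID response it was lower in 75 members at 8 h (24.0%) and in 38 at 24 h (30.1%), with medians of -0.46 and -0.25, and higher in none (27.6% and 32.0% of all genes called higher; 76 and 44 members at an unadjusted p under 0.05). These comparisons share the CNOT1-AID libraries. No member's difference between the CNOT4-AID and parental responses passed at either time (0.0067% and 0.0268% of all genes called lower, 0.0067% and 0.0402% higher), with 17 and 8 members at an unadjusted p under 0.05 and medians of 0.14 and -0.06. The 95% intervals of that difference ran from -0.58 to 0.88 at 8 h and from -0.85 to 0.61 at 24 h. Under ERCC scaling the CNOT1-AID response was below the parental one in 2 members and above it in 16 at 8 h (5.56% and 46.4% of all genes), and in 5 and 12 at 24 h (14.9% and 39.6%). Against the CNOT4-AID response on that scale it was lower in 3 members and higher in 3 at 8 h (5.59% and 46.6% of all genes), and in 15 and 1 at 24 h (22.0% and 30.6%).

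The CNOT1-AID response at 24 h was set against that at 8 h in the same fit. It was above the 8 h response in 18 of 77 members, a share not far from the 17.4% of all genes called, and below it in 1, where 18.9% of all genes were called, with a median difference of 0.11. Among the 18, named here after their values were seen, RPS14 differed by 0.37, RPL39 by 0.32, and RPL4, below 0 at 8 h and above it at 24 h, by 0.35. RPL22 was the single member called as going further down, by -0.32 (limma adjusted p = 0.0484). Other members had estimates below 0 that did not pass, the lowest of them at -0.41. Under ERCC scaling no member passed in either direction (6.92% of all genes higher and 15.3% lower), with 4 at an unadjusted p under 0.05. In CNOT4-AID cells no member's response differed past the threshold between the times (0.0067% of all genes higher and 0.0134% lower, 9 members at an unadjusted p under 0.05). Leaving out 1 library moved the CNOT1-AID count of 18 to between 9 and 28: it was 9 without untreated 8 h replicate 1 or auxin 8 h replicate 2, 10 without auxin 8 h replicate 1 or auxin 24 h replicate 2, 11 without untreated 24 h replicate 1, and 28 without untreated 8 h replicate 2.

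The lines differed before auxin. The mean of the untreated CNOT1-AID libraries was below that of the untreated parental ones in 11 members and above it in none (10.6% and 10.1% of all genes; 16 members at an unadjusted p under 0.05). RPS2 led by far. It had 1885, 1912, 2089 and 1960 deposited TPM in the 4 untreated CNOT1-AID libraries, against 3606, 3560, 3630 and 3805 TPM in the 4 untreated parental ones, so the groups were far apart (TMM log2 -0.86 ± 0.04, limma adjusted p = 2.33e-10; ERCC log2 -0.90). The count of 11 became 23 without CNOT1-AID untreated 8 h replicate 1, and 6 or 7 without any other of the 8 libraries but parental 24 h replicate 2. In untreated CNOT4-AID cells 30 members were higher than in parental cells and none lower (10.5% and 9.74% of all genes; 49 members at an unadjusted p under 0.05), with a median of 0.11 and RPL27 furthest at 0.31. Leaving out 1 library gave 12 to 33, with 12 to 14 without parental 8 h replicate 1, parental 24 h replicate 1, or replicate 2 of CNOT4-AID at 8 h or 24 h. Under ERCC scaling the counts were 4 lower for CNOT1-AID (5.35% of all genes) and 45 higher for CNOT4-AID (12.2%).

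The decay libraries, which hold deposited counts, were fitted with edgeR's quasi-likelihood test, with a slope of log2 level on hours of triptolide for each line. Slopes under ERCC scaling measure loss per total RNA input, and slopes under TMM scaling measure change relative to most other mRNAs. With the spike-in as the scale, ribosomal protein mRNA showed no called fall over 12 h in CNOT1-AID or parental cells, while in CNOT4-AID cells the slope was below 0 in all 77 members and was called in part of them. The members' counts per 1000 ERCC counts in CNOT1-AID cells were 3074 and 3218 at 0 h, 3176 and 3825 at 3 h, 2741 and 3435 at 6 h, and 3441 and 2667 at 12 h. In CNOT4-AID cells they were 3489 and 3334, 3218 and 3401, 3267 and 3357, and 2835 and 1635 at those times. In parental cells they were 3089 and 2431, 3114 and 2917, 2842 and 4417, and 3266 and 2888. The ranges of the CNOT1-AID and parental cells overlapped at 0 h, 6 h and 12 h, and the widest gaps between replicates were those of parental 6 h and CNOT4-AID 12 h.

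The members' share of protein-coding counts showed the lines apart. In CNOT1-AID cells it was 4.18% and 4.14% at 0 h, 4.46% and 3.93% at 3 h, 4.38% and 4.59% at 6 h, and 4.56% and 4.43% at 12 h, so it hardly moved. In CNOT4-AID cells it went up at each time, being 4.49% and 4.48%, 6.02% and 5.77%, 6.26% and 6.27%, and 7.46% and 7.64%. In parental cells it was 4.75% and 4.46%, 5.20% and 5.23%, 5.93% and 5.75%, and 6.99% and 7.40%. These shares are of counts and not of TPM, so their level cannot be set against the steady-state share.

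**Figure D4:**
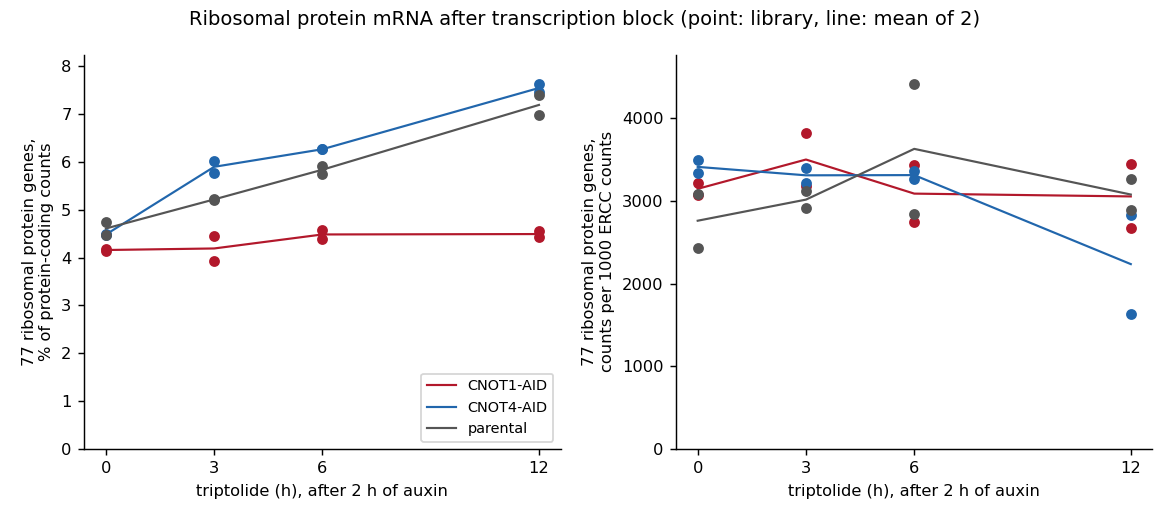
Ribosomal protein mRNA after the transcription block, by hours of triptolide (x axis), as a share of protein-coding counts (left, percent) and as counts per 1000 ERCC counts (right). Points are libraries and lines the mean of 2. The share reaches 6.99% to 7.64% at 12 h in CNOT4-AID and parental cells and 4.43% to 4.56% in CNOT1-AID cells, while the spike-in scale shows overlapping lines and the low CNOT4-AID 12 h replicate 2 at 1635.

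Under ERCC scaling no member's slope passed the threshold in CNOT1-AID or parental cells (edgeR, Benjamini-Hochberg adjustment), where 11.7% and 44.2% of all genes were called falling and 0.0655% and 0.774% rising. At an unadjusted p under 0.05 there was 1 member in each line, and DESeq2 called 0 in CNOT1-AID cells and 1 in parental cells, rising. The median slope of the members was -0.02 per h on the log2 scale in CNOT1-AID cells and 0.02 in parental cells, against -0.03 and -0.07 over all 16806 genes tested. In CNOT4-AID cells 30 members fell (83.5% of all genes), with a median slope of -0.05, against -0.14 for all genes. The share of all genes is given for this count of 30 alone, not for the fits below with libraries left out. That count rested on the 12 h libraries: it was 61 without replicate 1, which leaves the spike-rich library alone, and 0 without replicate 2. It was 0 also when all 12 h libraries were left out, 3 without 0 h replicate 1, 9 without 3 h replicate 1, 8 without 3 h replicate 2 and 14 without 6 h replicate 1.

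A half-life could not be bounded at both ends for most members in CNOT1-AID and parental cells, since the slope's 95% interval spanned 0 in 76 of 77 members in CNOT1-AID cells, in 40 in CNOT4-AID cells and in 76 in parental cells. The shortest estimate was 19.1 h for RPS29 in CNOT1-AID cells, 14.7 h for RPL36A in CNOT4-AID cells and 54.2 h for RPS7 in parental cells. At the median over members of the steep ends of the intervals, the half-life would be 15.9 h, 10.2 h and 35.6 h in those lines. Where the interval spans 0, the half-life is bounded from below alone.

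Relative to other mRNAs the lines differed. Under TMM scaling the slope was above 0 and passed in 21 members in CNOT1-AID cells (4.8% of all genes), in 77 in CNOT4-AID cells (27.1%) and in 77 in parental cells (27.3%). The median slopes were 0.02, 0.09 and 0.09 per h on the log2 scale. The CNOT1-AID slope was below the parental slope in 75 members and above it in none (15.7% and 20.5% of all genes), with a median difference of -0.07. It was below the CNOT4-AID slope in 76 (16.7%), with the same median. The exceptions against the parental line were RPS7 (edgeR adjusted p = 0.153) and RPL23 (edgeR adjusted p = 0.0542). No member's difference between the CNOT4-AID and parental slopes passed (edgeR; 0.0893% of all genes lower and 0.00595% higher; 2 members at an unadjusted p under 0.05).

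RPSA shows the pattern. Its CPM (counts scaled to library size) in CNOT1-AID cells was 964 and 929 at 0 h, 912 and 830 at 3 h, 900 and 953 at 6 h, and 937 and 960 at 12 h. In CNOT4-AID cells it was 1085 and 1082, 1356 and 1291, 1553 and 1423, and 1798 and 1871. In parental cells it was 1085 and 1324, 1322 and 1488, 1499 and 1393, and 1715 and 1725. The CNOT1-AID libraries stayed level while both other lines went up. The TMM slope of RPSA was 0.0143 ± 0.0068 per h in CNOT1-AID cells and 0.0819 ± 0.0068 in parental cells, a difference of -0.0676 ± 0.0097 (edgeR adjusted p = 8.26e-06). Under ERCC scaling the slopes were -0.0226 ± 0.0226 and 0.0163 ± 0.0233, and the difference of -0.0388 ± 0.0324 did not pass (edgeR adjusted p = 0.617).

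Under ERCC scaling no member's difference of slopes passed between any pair of lines (edgeR). For CNOT1-AID against parental 0.97% of all genes had a lower and 15.5% a higher slope, for CNOT4-AID against parental 0.137% and 0.0%, and for CNOT1-AID against CNOT4-AID 0.226% and 42.6%. At an unadjusted p under 0.05 there were 3, 34 and 0 members, and DESeq2 called 0, 1 and 0, the 1 being lower. The 95% intervals of the members' differences ran from -0.15 to 0.07 per h for CNOT1-AID minus parental, from -0.18 to 0.03 for CNOT4-AID minus parental and from -0.06 to 0.13 for CNOT1-AID minus CNOT4-AID. The member medians were -0.04, -0.07 and 0.03, against 0.02, -0.08 and 0.09 over all genes. The count for CNOT4-AID against parental moved when CNOT4-AID 12 h replicate 1 was left out, which leaves the spike-rich library alone at 12 h. The share of all genes called in that fit is not given, so the move is not a result about the members. The plot of member slopes shows the CNOT1-AID median below both others on the TMM scale and between them on the ERCC scale.

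**Figure D5:**
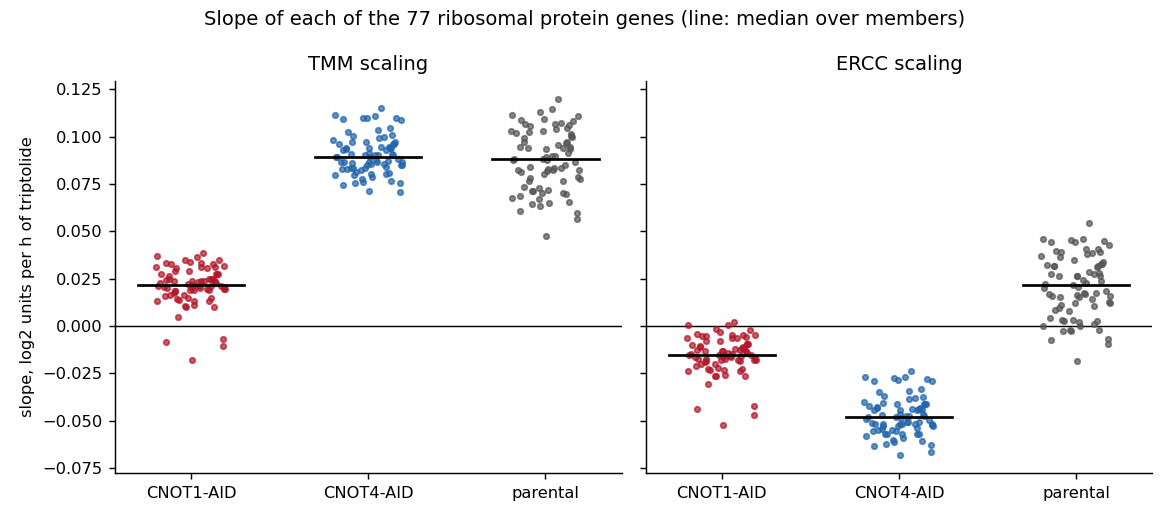
Slope of each of the 77 genes after triptolide (y axis, log2 units per h) by line under TMM scaling (left) and ERCC scaling (right). Points are genes and bars the median over genes. The medians are 0.02, 0.09 and 0.09 under TMM scaling and -0.02, -0.05 and 0.02 under ERCC scaling for CNOT1-AID, CNOT4-AID and parental cells.

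At 0 h of triptolide, after 2 h of auxin, the lines already differed in a few members. CNOT1-AID cells had 9 members lower and 3 higher than parental cells under TMM scaling (4.84% and 9.66% of all genes). RPS2 led again with 1293 and 1301 CPM in CNOT1-AID cells, against 3774 and 2442 in parental cells (log2 -1.22). RPSA (-0.29) and RPLP0 (-0.30) were among the 9, though both were above 0 under ERCC scaling (0.11 and 0.10, not past the threshold). RPL22 and RPS23, named with their values seen, were among the higher ones. In CNOT4-AID cells 4 members were higher, RPL27A, RPS3 and RPS25 among them, and RPS7 was lower (7.88% and 4.09% of all genes). Both of these counts, and the 3 higher in CNOT1-AID cells, lay below the shares of all genes. They do not set the members apart from other genes. These comparisons have no cells without auxin and rest on the parental 0 h pair, whose replicates were the least alike, and the counts moved with single libraries. The 9 became 26 without parental replicate 2 and 1 without either CNOT1-AID library, and the 4 higher in CNOT4-AID cells became 23 and 18 without parental replicates 1 and 2. Under ERCC scaling RPL21 alone was called, higher in CNOT1-AID cells. On that scale 5.51% of all genes were higher and 0.898% lower in CNOT1-AID cells, and 2.64% and 0.946% in CNOT4-AID cells. The single call is therefore not a result about the members.

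Genes close to the members in function were counted in the same fits. Their counts for CNOT1-AID cells stand against 29.8% of all genes lower and 33.1% higher at 8 h, and 34.8% and 36.7% at 24 h, under TMM scaling, and 9.76% and 52.0% at 8 h, and 19.9% and 46.1% at 24 h, under ERCC scaling. Of the other TOP mRNAs, 12 of 18 were lower and 3 higher in CNOT1-AID cells given auxin for 8 h, and 9 lower and 6 higher at 24 h (medians -0.26 and -0.11). PABPC1, the main poly(A)-binding protein, had log2 folds of -0.50 and -0.64, TPT1 -0.46 and -0.42, and RACK1, the scaffold on the small subunit, -0.39 and -0.23, while the helicase gene EIF4A2 had 1.14 and 1.31. Under ERCC scaling 9 of the 18 were higher and none lower at 8 h, where PABPC1 had -0.03, TPT1 0.01 and RACK1 0.08, and 11 were higher and 2 lower at 24 h. Of the 7 non-member ribosomal genes that passed the filter out of 10, 3 were lower and 2 higher at 8 h. FAU, the fusion gene of RPS30, had -0.48 and -0.44, and RPL36AL 0.30 and 0.40. Under ERCC scaling 3 of the 7 were higher and none lower at 8 h, with FAU at -0.01. Of the 78 mitochondrial ribosomal protein genes 29 were lower and 33 higher at 8 h (median 0.08), and 22 lower and 44 higher at 24 h (median 0.35), and under ERCC scaling 3 were lower and 51 higher at 8 h. The 8 h shares under TMM scaling were not far from those of all genes. Of the 150 ribosomal protein pseudogenes that passed the filter, whose reads may belong to the members, 48 were lower and 2 higher at 8 h.

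Some regulators of TOP mRNAs had large folds in CNOT1-AID cells. Of 14 such genes 5 were lower and 5 higher at 8 h, which is near the shares of all genes, and 7 and 5 at 24 h, and under ERCC scaling 2 were lower and 9 higher at 8 h. EIF4EBP2 encodes a repressor of cap-dependent translation that mTOR inactivates. It had 5.93 and 5.80 deposited TPM in CNOT1-AID cells given auxin for 8 h, against 32.95 and 34.94 TPM in untreated CNOT1-AID cells. Its log2 folds were -2.71 at 8 h and -2.70 at 24 h. LARP1 had 74.9 and 80.1 TPM with auxin for 8 h, against 114 and 133 TPM untreated, and log2 folds of -0.96 and -1.26. Both were also below 0 under ERCC scaling at 8 h (-2.27 and -0.49). EIF4EBP1 had -0.59 and -0.91, and LARP4, which binds poly(A) and PABPC1, 0.82 and 0.98. Of 13 chaperones and importers of ribosomal proteins, 3 were lower and 5 higher at 8 h, and 5 and 5 at 24 h, against 1 and 10 under ERCC scaling at 8 h. PDCD2, the chaperone of RPS2, had -0.60 and -1.17 (ERCC scaling -0.13 and -0.82), its relative PDCD2L 1.28 and 2.12, and GRWD1, the chaperone of RPL3, 0.96 and 1.52. Of 10 ligases and deubiquitinases of ribosomes, 1 was lower and 6 higher at 8 h, and 1 and 4 at 24 h, against 1 and 8 under ERCC scaling at 8 h. CNOT4 itself had 32.8 and 32.5 TPM in CNOT1-AID cells given auxin for 8 h, against 6.90 and 9.51 TPM in untreated CNOT1-AID cells (log2 1.65), and RNF25 had 1.57, while RNF10, a ligase for RPS2 and RPS3, had -0.99. In CNOT4-AID cells at 24 h, where 2.42% of all genes were lower and 2.09% higher, the same lists gave 4 higher other TOP mRNAs (NACA 0.50, EIF3E 0.38, NPM1 0.28 and BTF3 0.24), 2 lower regulators (RPS6KB2 -0.32 and EIF4EBP2 -0.22), 5 higher and 1 lower mitochondrial ribosomal protein genes and 1 higher chaperone. In the decay set under TMM scaling, where 15.7% of all genes had a lower and 20.5% a higher slope in CNOT1-AID than in parental cells, 14 of 18 other TOP mRNAs and 6 non-member ribosomal genes had a lower one, while the mitochondrial ribosomal protein genes split into 15 lower and 27 higher.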

How the data were processed

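Stranded total RNA libraries with rRNA removed were made from 500 ng of RNA with 2 µl of ERCC mix diluted 1 in 200, per the labels' protocols. The deposited steady-state table holds TPM values, per-gene levels made by the authors, and lists the ERCC sequences too. Its depth in counts is not given in the sources used here, so no counting error can be put on a TPM. The deposited triptolide table holds raw counts per gene made by the authors, 18216427 to 26723618 per library. Per the submitters' processing notes the tools were DESeq2, featureCounts, RSEM, SAMtools and STAR (2.5.1b) and the build hg38 (GRCh38), and no role is stated for any of them.

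Groups came from the labels, and all 58721 gene IDs matched GENCODE 29. Steady-state TPM were scaled by TMM factors and tested as log2(TPM + 0.5) with limma 3.58.1 (trend, robust), 1 mean for each of 12 groups, over 14921 genes with at least 1 TPM in 2 libraries. A fold on this scale slightly understates that of low genes. Counts were tested with edgeR 4.0.16 (quasi-likelihood, robust) in R 4.3.3 over 16806 genes, with library sizes from 56 ERCC sequences of mean count at least 10 for slopes, and TMM for 0 h. The Benjamini-Hochberg threshold was 0.05 throughout. Errors are SE from these fits, and intervals are 95%. Responses and slopes were compared as contrasts of the same fits. The procedures were tested on simulated data.

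Members picked by rule were 20 with a known role, and per main comparison the 5 largest rises and falls past the threshold. Some members outside that rule, such as RPL10A, RPL14 and RPS24, were also given values. Values of some members are not reported here. The members and lists were chosen with earlier results of these data known. Alternatives were other scalings, pseudocounts, filters, a replicate block, smaller fits, omitted libraries or times, and DESeq2 1.42.0. Same-numbered libraries did not deviate together (correlations -0.207 to 0.102 in the steady-state set and -0.186 to 0.0668 in the triptolide set). The main fits therefore did not pair them, though the correlations cannot tell whether such libraries were prepared together.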

Additional observations from a re-analysis of the deposited data

Results flagged for a closer look

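The CNOT1-AID response to auxin differed from the parental response by the test of the difference in limma's fit over all 14921 genes (Benjamini-Hochberg adjustment). The difference was negative and passed in 58 members at 8 h (23.2% of all genes called lower), with RPSA at -1.02 on the log2 scale. At 24 h it did so in 43 (29.6%), with RPSA at -1.11. The CNOT1-AID response differed from the CNOT4-AID response in the same way in 75 members at 8 h (24.0%), with RPSA at -1.03. At 24 h this held for 38 members (30.1%), with RPL36A at -0.96. RPL36A is the lowest member and its exons overlap another gene. Within CNOT1-AID cells the 24 h and 8 h responses differed upward in 18 members, with RPL4 at 0.35. That count is not far from the share of all genes called (17.4%). The responses differed downward in 1 member, RPL22, at -0.32, where 18.9% of all genes were called. All of these are on the TMM scale. Under ERCC scaling RPSA differed by -0.49 and -0.76 from the parental response at 8 h and 24 h and by -0.50 from the CNOT4-AID response at 8 h, all past the threshold. RPL36A at -0.87 (limma adjusted p = 0.0743), RPL4 at 0.24 (limma adjusted p = 0.145) and RPL22 at -0.43 (limma adjusted p = 0.110) did not pass on that scale.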

How the results depend on the processing

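The scale set most counts. Members called lower under ERCC scaling and with no scaling numbered 4 and 19 for CNOT1-AID at 8 h, 10 and 18 at 24 h, 0 and 0 for CNOT4-AID at 24 h, 2 and 5 for CNOT1-AID minus parental at 8 h, 5 and 9 at 24 h, 3 and 4 for CNOT1-AID minus CNOT4-AID at 8 h, 15 and 13 at 24 h, and 4 and 7 for untreated CNOT1-AID against parental. Members higher in the 24 h minus 8 h response numbered 0 and 3, and with no scaling 0 were higher in untreated CNOT4-AID cells. CNOT4-AID at 24 h gave 2 with no filter, 8 with a filter of 5 TPM, 2 without trend or robust fitting, 0 with the line alone and 0 with its 4 libraries alone. No filter gave 36 for CNOT1-AID minus parental at 8 h and 10 for 24 h minus 8 h, the line alone gave 3 for the last, and TMM over protein-coding genes gave 58 for CNOT1-AID minus CNOT4-AID at 24 h. Shares of all genes under ERCC scaling stand with the results above. For the other settings no share is given, so those counts do not set the members apart from other genes. The causes were not tested.

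Under ERCC scaling 30 of 77 members stood below 0 in CNOT1-AID cells at 8 h and 32 at 24 h. RPL4 had 0.25 at 8 h. Of the members named by the rule, those that changed sign at 8 h were RPL3 0.24, RPL5 0.18, RPL10 0.14, RPL11 0.14, RPS3 0.070, RPS4X 0.16, RPS6 0.080, RPS7 0.11, RPS19 0.033, RPS26 0.027 and RPS27A 0.035, and at 24 h RPL3 0.090, RPL5 0.19, RPL10 0.10, RPS3 0.15, RPS6 0.037, RPS7 0.091, RPS19 0.0043 and RPS26 0.10. With no scaling those that changed sign were RPL3 0.063 and RPL5 0.0087 at 8 h, and RPL5 0.088, RPL10 0.0041, RPS3 0.053 and RPS26 0.0052 at 24 h. RPL23A was 0.069 under ERCC scaling in CNOT4-AID cells at 24 h.

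For slopes, TMM and library size alone gave 77 and 73 rising members in parental cells, 21 and 6 in CNOT1-AID cells, 0 and 0 falling in CNOT4-AID cells, 75 and 47 lower for CNOT1-AID minus parental, and 76 and 52 for CNOT1-AID minus CNOT4-AID. Without 12 h, 4 rose in parental and 0 fell in CNOT4-AID cells, where no filter gave 7. DESeq2 gave 1 rising in parental cells and 1 lower for CNOT4-AID minus parental, as did a filter of 5 CPM. At 0 h ERCC scaling gave 0 lower in CNOT1-AID and 0 higher in CNOT4-AID cells (0.898% and 2.64% of all genes). DESeq2 gave 7 higher in CNOT4-AID cells. For slopes under TMM scaling 34.2% of all genes fell in CNOT4-AID cells, and the other TMM shares stand above. No share is given for library size alone, omitted times, filters or DESeq2.

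The replicate block was fitted although same-numbered libraries did not deviate together. With it 74 members were lower in CNOT1-AID cells at 8 h and 57 at 24 h, and 3 in CNOT4-AID cells at 24 h. Under triptolide 24 fell in CNOT4-AID cells. No count moved by over 1.5 times. A crossed pairing at 8 h, added after seeing the data, gave 74. No share of all genes is given for the fits with a block or a crossed pairing.

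Leaving out 1 library gave 70 to 74 members lower in CNOT1-AID cells at 8 h and 50 to 58 at 24 h, 0 to 2 in CNOT4-AID cells at 24 h, 43 to 65 and 36 to 49 for CNOT1-AID minus parental at 8 h and 24 h, 65 to 75 and 26 to 49 for CNOT1-AID minus CNOT4-AID, 9 to 28 for 24 h minus 8 h, 6 to 23 and 12 to 33 for untreated CNOT1-AID and CNOT4-AID cells, 0 to 1 rising in CNOT4-AID cells at 8 h, in the CNOT4-AID minus parental response at 24 h, in parental slopes and in CNOT1-AID minus CNOT4-AID slopes, 0 to 61 falling in CNOT4-AID slopes, 0 to 52 for CNOT4-AID minus parental slopes, and 1 to 26 and 4 to 23 at 0 h. The lone library of a group is then assumed to vary like the others, and no share of all genes is given for these fits.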
